A study of Mus musculus with 5 samples.

Results

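The genes described here are 9 genes that are used as signs of mature astrocytes, namely Slc1a2, Slc1a3, Glul, Aqp4, Gja1, Gjb6, Aldh1l1, Aldoc and S100b. They were chosen by name, and their levels were taken from the per-gene table of each library as TPM, a gene's share of transcripts per unit of transcript length, brought to one total for all libraries. All 9 were among the 46078 genes of these tables, 8 had a mean of at least 1 TPM, and 7 were among the 7599 genes of the count table. RNA was sequenced from primary neural precursor cells of the subventricular zone, the stem cell region beside the lateral ventricles, of adult C57BL/6 mice. By the labels the mice were female, 5 to 8 weeks old and without a mutation, whereas the study's methods give an older age. The cells had been expanded as neurospheres with EGF and FGFb, and were then plated on poly-D-lysine. For plating, the study's methods give an astrocyte medium that holds fetal bovine serum, with EGF and FGFb added. PBS was given a day after plating. All 5 libraries came from cells given PBS as a sham exposure, 2 of them taken after 1 h and 3 after 8 h, so time after PBS is the comparison that the design offers. There was no library of mature astrocytes or of brain tissue among them, and libraries of cells exposed to H2O2 were not analysed here. The study counts each animal as a replicate for cells of this region.

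Astrocytes clear glutamate from the synapse through the transporters GLAST (Slc1a3) and GLT-1 (Slc1a2), and convert it to glutamine with glutamine synthetase (Glul), which is returned to neurons. They also move water through aquaporin-4 (Aqp4), most of it at the endfeet on blood vessels, and are joined into a network by gap junctions made of connexin 43 (Gja1) and connexin 30 (Gjb6). Aldh1l1, Aldoc and S100b encode a cytosolic folate enzyme, a brain aldolase of glycolysis and a calcium-binding protein, and are widely used to mark the cell type. Stem cells of the adult subventricular zone are themselves glial in kind and carry several of these genes.

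Gja1, Glul and Slc1a3, whose levels were highest in the same libraries, are shown by the 250 bases before their RefSeq start, beside S100b, whose level was nearly flat, and Gjb6, which was listed at 0. The sequences are those of RefSeq on GRCm38.p6, which covered 8 of the 9 genes, and these 5 genes have a RefSeq start within 43 bases of the gene start in the tables. They are written from 5′ to 3′ on the strand of the gene, and capitals mark a match, on either strand, to 1 of 8 motifs. These were the TATA box (TATAAA), the CCAAT box, the GC box (GGGCGG), the AP-1 site (TGANTCA), the half-site of the cyclic AMP response element (TGACG), a SOX motif (AACAAT), the E-box (CAGCTG) and the half-site of NFI proteins (TTGGCA). The windows are chr15:8710808-8711057 (minus strand) for Slc1a3, chr1:153899679-153899928 (plus) for Glul, chr10:56377050-56377299 (plus) for Gja1, chr14:57133612-57133861 (minus) for Gjb6 and chr10:76253586-76253835 (plus) for S100b.
Slc1a3: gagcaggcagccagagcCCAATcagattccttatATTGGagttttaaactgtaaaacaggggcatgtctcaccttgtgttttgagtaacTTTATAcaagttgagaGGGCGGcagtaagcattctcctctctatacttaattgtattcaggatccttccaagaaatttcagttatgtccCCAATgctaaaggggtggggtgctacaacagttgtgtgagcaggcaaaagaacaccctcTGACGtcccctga
Glul: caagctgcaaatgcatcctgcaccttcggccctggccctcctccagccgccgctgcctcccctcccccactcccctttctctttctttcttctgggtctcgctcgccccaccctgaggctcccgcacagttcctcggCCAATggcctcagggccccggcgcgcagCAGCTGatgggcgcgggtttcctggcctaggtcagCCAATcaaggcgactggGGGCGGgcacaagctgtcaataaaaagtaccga
Gja1: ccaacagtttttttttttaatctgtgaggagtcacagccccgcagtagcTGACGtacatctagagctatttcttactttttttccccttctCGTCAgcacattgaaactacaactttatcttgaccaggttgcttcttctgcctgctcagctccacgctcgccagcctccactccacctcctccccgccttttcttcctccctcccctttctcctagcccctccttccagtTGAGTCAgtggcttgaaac
Gjb6: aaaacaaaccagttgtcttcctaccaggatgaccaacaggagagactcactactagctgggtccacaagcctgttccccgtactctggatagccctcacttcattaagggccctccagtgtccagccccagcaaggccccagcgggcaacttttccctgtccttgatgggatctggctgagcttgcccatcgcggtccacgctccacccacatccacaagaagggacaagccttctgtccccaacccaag
S100b: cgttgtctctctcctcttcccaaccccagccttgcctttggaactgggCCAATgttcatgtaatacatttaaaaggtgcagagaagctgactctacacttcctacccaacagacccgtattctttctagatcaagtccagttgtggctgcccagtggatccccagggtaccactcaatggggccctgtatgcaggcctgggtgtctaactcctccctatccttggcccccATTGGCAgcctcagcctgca
The Slc1a3 window held the CCAAT box in 3 places, together with 1 match each to the TATA box, the GC box and the cyclic AMP half-site. Glul had 2 CCAAT matches, a GC box that ended 27 bases before the start, and an E-box. Its window was 64.8% G and C with 15 CG dinucleotides, against medians of 52.4% and 6 over the 32851 windows of this length in the reference table. Gja1 had no CCAAT but held an AP-1 site 12 bases before its start, and the cyclic AMP half-site in 2 places. S100b held CCAAT in 2 places, of which the nearer overlapped an NFI half-site, and Gjb6 held none of the 8 motifs. Of all windows, 33.8% held the CCAAT box, 32.7% the GC box, 17.8% the cyclic AMP half-site, 13.0% the E-box, 12.4% the TATA box, 12.3% the NFI half-site, 9.42% the SOX motif and 6.75% the AP-1 site. A match is a description of these letters and not a site of binding.

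The count columns summed to between 13988166 and 18572154 reads over the genes listed, and between 13681 and 13967 genes reached 1 TPM in a library. Neural precursor genes were present in every library, with Nes at 690.1 to 784.4 TPM and all 8 genes of that list above a mean of 1 TPM. Library identifiers in the labels fall into 2 number series of unstated meaning. Series 1 holds both 1 h libraries and 8 h replicate 14, and series 2 holds 8 h replicates 13 and 15. Xist, which is transcribed from the inactive X chromosome of females, had 165.3 and 199.7 TPM in series 2 and at most 0.061 TPM in series 1, and the Y-linked genes Ddx3y, Eif2s3y, Kdm5d and Uty showed the reverse, so that 3 libraries went against their label as female. Mitochondrial transcripts also differed, at 10.7% to 11.1% of TPM in series 1 against 6.23% and 6.30% in series 2. Series, the sex of the animals and whatever else divides these libraries cannot be told apart, and any result in which 8 h replicates 13 and 15 stand together carries this limit. The count columns and the TPM tables also disagreed for the 8 h libraries, and not by their names alone. Of 6860 genes with at least 100 counts in each column, the column named 8 h replicate 13 lay within 0.1 on the log2 scale of its own table for 25.7% and of that of replicate 14 for 79.1%. For the column named 8 h replicate 15 the shares were 42.2% with its own table and 79.1% with that of replicate 13, and for the column named 8 h replicate 14 no table exceeded 41.3%. Libraries are therefore named here by their TPM tables, and count columns by their own names.

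The 8 detected genes spanned 2 orders of level. By mean TPM the order was Aldh1l1 (579.0), Slc1a3 (469.1), Glul (282.2), Aldoc (174.1), Gja1 (128.5), Slc1a2 (34.0), Aqp4 (21.3) and S100b (5.56), and the same order was found within each of the 5 libraries. Across libraries the ranges of neighbours in this order overlapped for Aldh1l1 and Slc1a3, Slc1a3 and Glul, Glul and Aldoc, Aldoc and Gja1, and Slc1a2 and Aqp4. They did not overlap between Gja1 and Slc1a2 or between Aqp4 and S100b. Together the 9 genes made up 0.129% and 0.145% of all TPM at 1 h. At 8 h they made up 0.221% and 0.224% in replicates 13 and 15, and 0.128% in replicate 14.

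**Figure D1:**
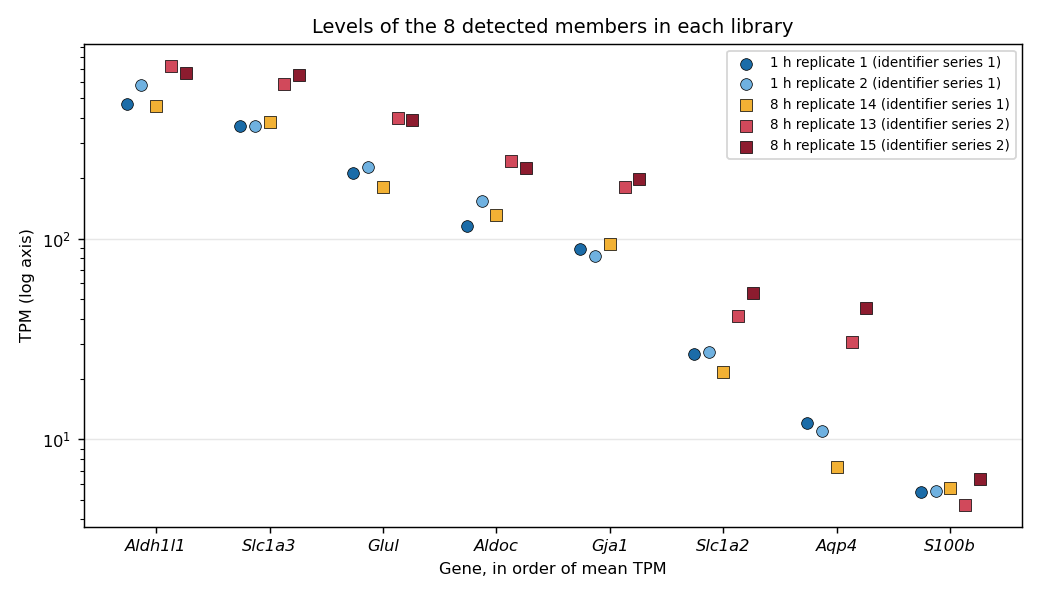
TPM (log axis) of the 8 detected genes in each library, in order of mean level, with circles for the 1 h and squares for the 8 h libraries. For all genes but S100b the points of 8 h replicates 13 and 15 lie above the other 3 libraries, and S100b stays between 4.72 and 6.37 TPM.

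Of the glutamate transporters, Slc1a3 was the more abundant in every library. The Slc1a3 gene (ENSMUSG00000005360, chromosome 15, 8634124 to 8710764, minus strand, GRCm38 as for all coordinates of genes below) had 365.5 and 362.4 TPM at 1 h. At 8 h it had 588.5 TPM in replicate 13, 379.5 in replicate 14 and 649.8 in replicate 15. All 8 h libraries thus lay above both 1 h libraries, but replicate 14 by little, at 1.04 times the 1 h mean. The means were 363.9 ± 2.23 TPM (SD, n = 2) at 1 h and 539.3 ± 142 TPM (SD, n = 3) at 8 h, a log2 fold change of 0.53 ± 0.23 (SE) on the log2(TPM + 1) scale, which was not called (limma, adjusted p = 0.41 over all genes tested). In RNA of whole cultures, fewer cells of a type and less RNA per cell cannot be told apart, here or for the genes that follow.

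The Slc1a2 gene, which encodes the main glutamate transporter of the mature forebrain, lies on chromosome 2 (ENSMUSG00000005089, 102658659 to 102790784, plus strand). Its level was 26.5 and 27.4 TPM at 1 h, against 41.0, 21.7 and 53.5 TPM in 8 h replicates 13, 14 and 15. Replicate 14 was below both 1 h libraries and the others were above, so the groups overlapped. The log2 fold change was 0.41 ± 0.36 (SE, with an adjusted p of 0.585 in limma), with 27.0 ± 0.606 TPM (SD, n = 2) at 1 h and 38.7 ± 16.1 TPM (SD, n = 3) at 8 h. The level of Slc1a3 was between 12.1 and 17.5 times that of Slc1a2 in a library, with means of 13.5 ± 0.386 (SD, n = 2) at 1 h and 14.7 ± 2.70 (SD, n = 3) at 8 h. Both transporters were thus present throughout, in a ratio whose values at 1 h lay within those at 8 h.

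Glul, the enzyme that makes glutamine from the glutamate taken up, was highest in the same 8 h libraries. The gene (ENSMUSG00000026473, chromosome 1, 153899944 to 153909723, plus strand) had 212.2 and 227.6 TPM at 1 h, against 399.3, 181.7 and 390.1 TPM in 8 h replicates 13, 14 and 15. Replicates 13 and 15 were close to each other, and replicate 14 was the lowest library of all. Means were 219.9 ± 10.9 TPM (SD, n = 2) and 323.7 ± 123 TPM (SD, n = 3), and the log2 fold change of 0.47 ± 0.35 (SE) was not called (limma, adjusted p = 0.542). The microRNA gene Mir8114 lies within Glul on the same strand and was itself listed with 124.3 to 298.0 TPM. Reads may therefore have been divided between them, which leaves the level of Glul uncertain by an amount that was not measured. TPM is scaled by transcript length, so the TPM of Mir8114 does not give the share of reads concerned. Slc1a2 had between 0.103 and 0.137 times the TPM of Glul in a library, a narrower range than either gene had alone.

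Aqp4, the water channel of astrocyte endfeet, varied most. The gene (ENSMUSG00000024411, chromosome 18, 15389394 to 15403684, minus strand) had 12.04 and 11.1 TPM at 1 h. In the 8 h replicates 13, 14 and 15 it had 30.7, 7.33 and 45.2 TPM, which places one 8 h library below and the others above the 1 h pair. The highest library had 6.18 times the TPM of the lowest. The means of 11.5 ± 0.694 TPM (SD, n = 2) and 27.7 ± 19.1 TPM (SD, n = 3) gave a log2 fold change of 0.88 ± 0.70 (SE), and it was not called (limma, adjusted p = 0.561). By rank in the library, Aqp4 stood at place 4265 of 46078 genes in 8 h replicate 15 and at 10110 in 8 h replicate 14.

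The connexins of astrocyte gap junctions were unequal. Gja1 (ENSMUSG00000050953, chromosome 10, 56377300 to 56390419, plus strand) had 88.7 and 82.1 TPM at 1 h, against 180.6, 94.0 and 197.2 TPM in 8 h replicates 13, 14 and 15. Like Slc1a3, it was higher in every 8 h library than in either 1 h library, with replicate 14 at 1.10 times the 1 h mean. Its log2 fold change was 0.80 ± 0.32 (SE, limma, unadjusted p = 0.0451, adjusted p = 0.402), from 85.4 ± 4.68 TPM (SD, n = 2) to 157.3 ± 55.4 TPM (SD, n = 3). Gjb6 (ENSMUSG00000040055, chromosome 14, 57123303 to 57133611, minus strand) was listed at 0 TPM and 0 coverage in each of the 5 libraries. The count table lists neither connexin gene, and no limit was therefore set on Gjb6 from counts. The ratio of Gja1 to Aqp4 was lowest in 8 h replicate 15 (4.36) and highest in 8 h replicate 14 (12.8), against 7.37 and 7.43 at 1 h.

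Aldh1l1 and Aldoc mark astrocytes by their metabolism, and Aldh1l1 had the highest level of the 9 genes. Aldh1l1 (ENSMUSG00000030088, chromosome 6, 90486427 to 90600203, plus strand), which oxidises formyl-tetrahydrofolate in the cytosol, had 466.9 and 580.6 TPM at 1 h, against 724.3, 454.9 and 668.3 TPM in 8 h replicates 13, 14 and 15. It ranked between 180 and 272 among all genes of a library. Means were 523.7 ± 80.4 TPM (SD, n = 2) and 615.8 ± 142 TPM (SD, n = 3), with a log2 fold change of 0.21 ± 0.22 (SE, with an adjusted p of 0.644 in limma). Aldoc (ENSMUSG00000017390, chromosome 11, 78322968 to 78327781, plus strand), the aldolase of brain, had 115.5 and 153.3 TPM at 1 h, against 244.2, 131.4 and 225.9 TPM at 8 h in the same order. Replicate 14 lay within the 1 h values and the others above them. Its log2 fold change was 0.54 ± 0.29 (SE, with an adjusted p of 0.454 in limma), from 134.4 ± 26.8 TPM (SD, n = 2) to 200.5 ± 60.5 TPM (SD, n = 3).

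S100b, a calcium-binding protein that astrocytes secrete, was the exception among the detected genes. The gene (ENSMUSG00000033208, chromosome 10, 76253853 to 76261159, plus strand) had 5.44 and 5.53 TPM at 1 h, against 4.72, 5.73 and 6.37 TPM in 8 h replicates 13, 14 and 15. The 8 h values lay on both sides of the 1 h values, and replicates 13 and 15 held the lowest and the highest level. Means were 5.49 ± 0.0642 TPM (SD, n = 2) and 5.61 ± 0.829 TPM (SD, n = 3), with a log2 fold change of 0.02 ± 0.17 (SE, with an adjusted p of 0.962 in limma). Mean coverage per base was 13.4 to 18.1 for S100b, against 306.2 to 539.2 for Aldh1l1, so its values rest on far fewer reads. S100b overlaps Dip2a on the opposite strand, which had 26.5 to 31.8 TPM. The library kit keeps the strand, but whether the counting used it is not given in the sources.

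Over the comparison of 8 h with 1 h, 0 of the 8 tested genes passed the thresholds of limma's adjusted p (at most 0.05) together with the log2 fold change (beyond 1 in size), where 0.0433% of all 13870 genes tested were called. An unadjusted p under 0.05 with a higher level at 8 h was found for 1 of 8, Gja1, against 9.52% of all genes. Slc1a3 and Gja1, 2 of 8, had all 8 h libraries above both 1 h libraries, against 23.7% of all genes. The median log2 fold change was 0.50 over these genes and 0.10 over all genes tested. The shares called or not overlapping were thus near the background.

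**Figure D2:**
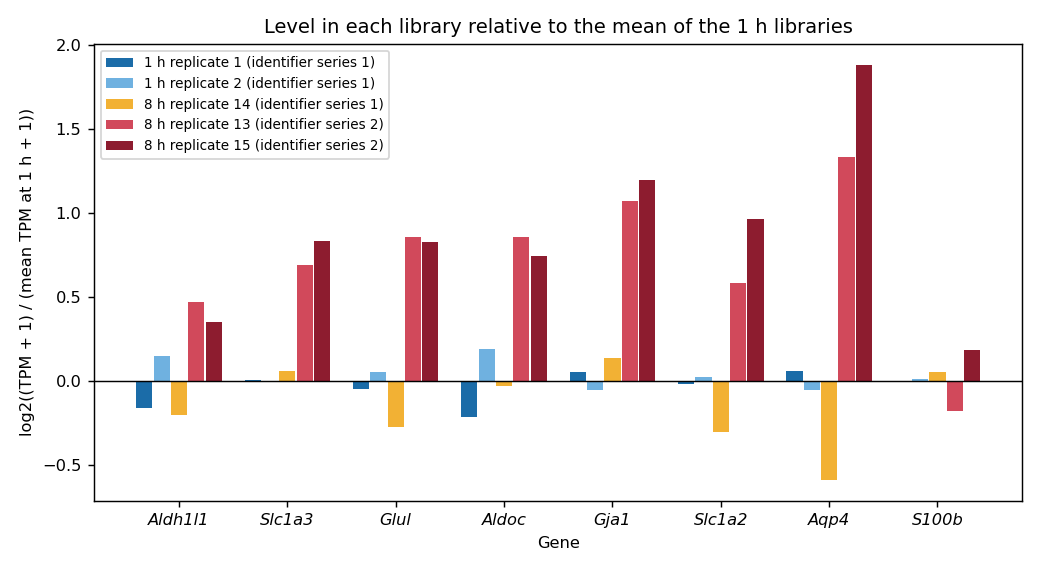
Level of each detected gene in each library as log2 of TPM + 1 relative to the mean of the 1 h libraries, which sets 0. Bars of 8 h replicates 13 and 15 lie above 0 for every gene except S100b, where they differ in sign, and are highest for Aqp4, while 8 h replicate 14 lies below 0 for Aldh1l1, Glul, Aldoc, Slc1a2 and Aqp4.

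The 8 h libraries did not form one group for these genes. The mean of 8 h replicates 13 and 15 was 5.18 times the level in 8 h replicate 14 for Aqp4, 2.18 times for Slc1a2, 2.17 times for Glul and 2.01 times for Gja1. It was 1.79 times for Aldoc, 1.63 times for Slc1a3, 1.53 times for Aldh1l1 and 0.968 times for S100b. The level in 8 h replicate 14 was between 0.634 times (Aqp4) and 1.10 times (Gja1) the 1 h mean. In 7 of the 8 genes, all but S100b, replicates 13 and 15 were above each of the other 3 libraries, which held for 39.8% of all genes.

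A coefficient for the identifier series, in a limma fit with time as the other term, measured this difference. It was chosen after the data had been seen. The coefficient was 2.20 ± 0.24 (SE) for Aqp4 (adjusted p = 0.0084), 1.11 ± 0.10 for Glul (adjusted p = 0.00616) and 1.08 ± 0.18 for Slc1a2 (adjusted p = 0.024), and these 3 of 8 genes were called higher in series 2 by limma, against 3.33% of all genes. By the adjusted p of limma alone 6 of 8 passed, against 7.44%, with Gja1 at 1.00 ± 0.11 (adjusted p = 0.0104), Aldoc at 0.83 ± 0.18 (adjusted p = 0.0457) and Slc1a3 at 0.70 ± 0.10 (adjusted p = 0.0169). Aldh1l1 had 0.61 ± 0.15 (limma, adjusted p = 0.0613) and S100b had -0.05 ± 0.21 (limma, adjusted p = 0.902). The median coefficient was 0.92 over these genes and 0.11 over all genes tested, of which 8919 had a positive and 4951 a negative one. The series term rests on 8 h replicate 14 as the only 8 h library of its series, and what it stands for was not tested.

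With the series as a term, the change with time was of mixed sign. The log2 fold change of 8 h against 1 h was then -0.59 ± 0.24 (SE) for Aqp4, -0.30 ± 0.18 for Slc1a2, -0.27 ± 0.10 for Glul, -0.19 ± 0.15 for Aldh1l1 and -0.018 ± 0.18 for Aldoc. It stayed above 0 for Gja1 (0.14 ± 0.11), Slc1a3 (0.06 ± 0.10) and S100b (0.05 ± 0.21). No gene of the 8 was called, with adjusted p between 0.502 and 0.988 in limma.

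Without 8 h replicate 14, the remaining libraries divide alike by time and by series. There, Gja1 (log2 fold change 1.14 ± 0.094, SE, adjusted p = 0.00283) and Aqp4 (1.61 ± 0.19, adjusted p = 0.00645) were called higher at 8 h by limma, which is 2 of 8 against 3% of all genes. By the adjusted p of limma alone 6 of 8 genes passed against 15.8%, and Aldh1l1 (0.42 ± 0.12, adjusted p = 0.0614) and S100b (0.0011 ± 0.17, adjusted p = 0.996) did not. Time and series cannot be told apart in this setting.

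**Figure D3:**
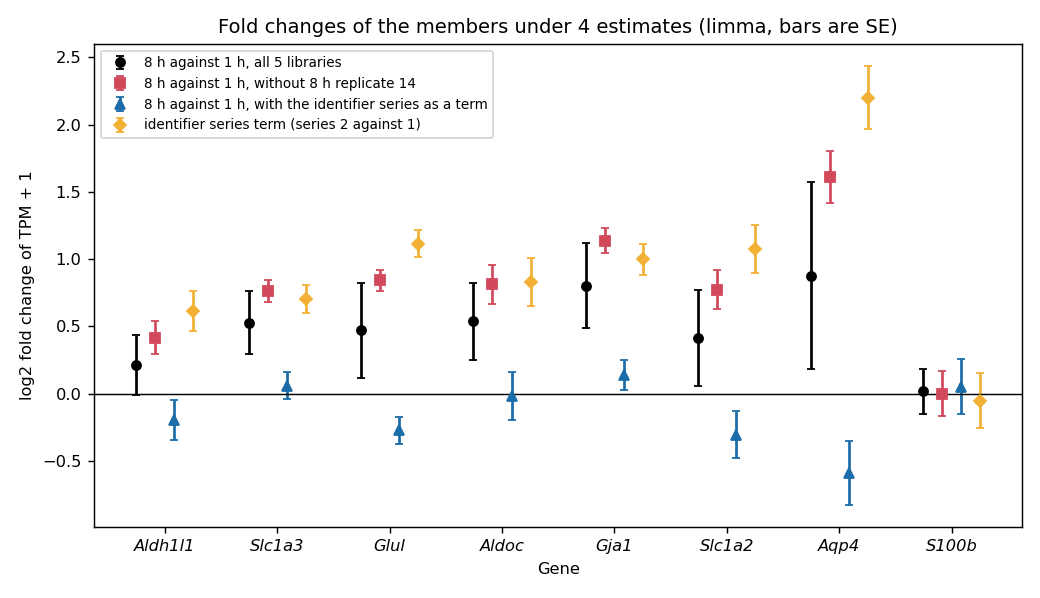
Log2 fold changes of TPM + 1 for the 8 detected genes, with SE bars from limma, for 8 h against 1 h with all 5 libraries, without 8 h replicate 14 and with the identifier series as a term, and for the series term itself. For all genes but S100b, estimates of time fall when the series is a term, to -0.59 for Aqp4, while the series term reaches 2.20 for Aqp4.

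Read counts gave no call either. Of the 7 members in the count table, 0 were called by edgeR's quasi-likelihood test, and 0% of all 7590 genes tested were, with 199 genes at an unadjusted p under 0.05. DESeq2 also called 0 genes, with 227 at an unadjusted p under 0.05. Aqp4 had 613 and 668 counts in the 1 h columns and 475, 550 and 1895 in the columns named 8 h replicates 13, 14 and 15. Glul had 6075 and 7933 counts at 1 h, and 6314, 5498 and 13801 at 8 h in that order. Scaled to the column totals, the column named 8 h replicate 15 was the highest of the 5 for 6 of 7 genes, all but S100b. S100b had 5.79 and 6.11 CPM (counts scaled to the column total) at 1 h, against 6.10, 26.7 and 4.74 at 8 h. In edgeR it had a log2 fold change of 1.03 ± 0.77 (SE) with an adjusted p of 0.966, and of -0.15 without the column named 8 h replicate 14, which held 387 S100b counts and matched no TPM table closely. The remaining log2 fold changes from counts lay between -0.22 ± 0.23 (SE) for Aldh1l1 and 0.37 ± 0.55 (SE) for Aqp4, with adjusted p from 0.966 to 0.983 in edgeR. For genes other than S100b, 1 of the 8 h columns is high and 2 are not, whatever names they are given. The TPM table of 8 h replicate 15 had no close match, with at most 42.2% of genes for any column. That 2 of the 8 h libraries hold the higher levels therefore rests on the TPM tables and was not seen in the counts.

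The genes with the profile most like each member over the 5 libraries were sought among 10275 other genes per member with a mean of at least 5 TPM, by the root mean square distance of log2(TPM + 1) profiles centred on their means. For Slc1a3 they were Smc4 (distance 0.022), a subunit of condensin, and Rad54b (0.029), a DNA repair gene. Gja1 was nearest to Chek2 (0.030), a checkpoint kinase, and Plp2 (0.043), and Glul to Mmgt2 (0.038) and Kpna2 (0.041), a nuclear import receptor. Aldh1l1 was nearest to Iglon5 (0.026) and Bcan (0.029), which encodes brevican of the brain's matrix. Aldoc was nearest to P3h4 (0.028) and Adgrg1 (0.033), and Slc1a2 to Cxcl14 (0.051) and Notch2 (0.063). Aqp4 had no neighbour as close, with Sepp1 at 0.172 and Megf10, an engulfment receptor, at 0.181. This distance grows with the range of a profile, and Aqp4 had the widest range of the members. Its Pearson correlation over the 5 libraries was 0.983 with Sepp1 and 0.996 with Megf10. S100b was nearest to Arfgap1 (0.023) and Psen2 (0.036). No nearest gene was itself a member, and among the members the closest pair was Glul and Slc1a2, at 0.135. These distances describe 5 libraries only.

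Other genes of amino acid transport and glutamate metabolism were read from a list of 18, of which 17 were tested. With limma, 0 were called between 8 h and 1 h. At an unadjusted p under 0.05, 2 of 17 were higher (9.52% of all genes) and 1 lower (391 of all 13870 genes). Slc1a5, a glutamine carrier, had 5.77 and 5.62 TPM at 1 h, against 13.1, 6.44 and 13.3 TPM in 8 h replicates 13, 14 and 15 (log2 fold change 0.77 ± 0.31, SE, limma, adjusted p = 0.402). Slc38a2, a neutral amino acid carrier, had 202.5 and 189.2 TPM against 162.4, 165.1 and 165.0 TPM (log2 fold change -0.25 ± 0.086, SE, limma, adjusted p = 0.37). Among the most abundant of the list, Glud1, glutamate dehydrogenase, had a mean of 287.4 TPM, and the GABA transporter Slc6a11 had 198.2 TPM. The median log2 fold change of the list was 0.08. For the series term 4 of 17 passed the adjusted p of limma and were higher in series 2, against 7.44% of all genes. The 4 were Slc6a11 (1.15), Slc7a10 (1.12), Slc1a5 (0.93) and Pcx (0.88), named here after their values were seen. The neuronal-type transporter Slc1a1 had a series coefficient of -0.97 ± 0.32 (SE, with an adjusted p of 0.124 in limma), the opposite sign to Slc1a2 and Slc1a3.

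For water and ion handling, 17 of 19 genes were tested, and 0 had an unadjusted p under 0.05 between 8 h and 1 h. Among the most abundant were Hepacam (263.2 TPM), a cell adhesion protein of astrocyte endfeet, and dystroglycan, Dag1 (212.2 TPM). These had series coefficients of 0.07 ± 0.11 and 0.39 ± 0.097 (SE, limma, adjusted p = 0.742 and 0.0648). Higher in series 2 at an adjusted p of limma of at most 0.05 were 5 of 17, against 7.44% of all genes. Among the 5, and named after their values were seen, were Atp1b2 (0.80), Atp1b1 (0.71), Mlc1 (1.65) and the potassium channel Kcnj10 (1.48), which lies beside Aqp4 in endfeet. Mlc1 had 97.0 and 113.6 TPM at 1 h, against 291.2, 90.4 and 280.6 TPM in 8 h replicates 13, 14 and 15, the same division of libraries as Aqp4. Aqp4 was the most abundant aquaporin listed, since Aqp9 and Aqp11 had means of 2.34 and 1.95 TPM and Aqp1 had 0.185 TPM.

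Of 22 other genes of gap junctions, 6 were tested and 6 were listed at 0 in every library. The partner protein Tjp1 (ZO-1) had a mean of 148.9 TPM and Panx1 had 31.6 TPM. Gjc1 had 18.7 TPM and a series coefficient of 0.68 ± 0.15 (SE, with an adjusted p of 0.0495 in limma). Gjc3, a connexin of oligodendrocytes, had 17.7 and 16.6 TPM at 1 h, against 8.50, 13.7 and 9.18 TPM at 8 h, below 1 h in every library (log2 fold change -0.69 ± 0.21, SE, limma, unadjusted p = 0.0182, adjusted p = 0.355). No other connexin exceeded a mean of 1.22 TPM, so Gja1 was the most abundant connexin by TPM.

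The folate pathway, in which Aldh1l1 works, was read from 19 genes, of which 17 were tested and 2 were at 0. With limma 0 were called, 4 of 17 were higher at 8 h at an unadjusted p under 0.05 (9.52% of all genes), and 8 of 17 had all 8 h libraries above both 1 h libraries (23.7% of all genes). The 4 were Atic of purine synthesis (log2 fold change 0.57 ± 0.14, SE), the mitochondrial enzyme Mthfd2 (0.39 ± 0.10), Shmt1 (0.62 ± 0.20) and Mthfd1 (0.31 ± 0.12), with adjusted p between 0.296 and 0.388 in limma. They had 8 h replicate 14 above both 1 h libraries, which their choice by the unadjusted p favours. Mthfd2 had 48.6 and 52.2 TPM at 1 h, against 66.1, 62.7 and 70.7 TPM in 8 h replicates 13, 14 and 15. Shmt2 and Gart, also among the most abundant, had means of 128.6 and 89.6 TPM. Aldh1l2, the mitochondrial relative of Aldh1l1, had 16.7 TPM and a log2 fold change of -0.038 ± 0.12 (SE, with an adjusted p of 0.891 in limma).

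Aldolases and S100 proteins did not move as one. Aldoa, the general glycolytic aldolase, had a mean of 777.1 TPM and a log2 fold change of 0.04 ± 0.11 (SE, with an adjusted p of 0.855 in limma). S100a10 had 875.1 and 797.5 TPM at 1 h, against 417.5, 976.6 and 370.4 TPM in 8 h replicates 13, 14 and 15, so that it was lowest where Aqp4 was highest, with a series coefficient of -1.31 (limma, adjusted p = 0.00616). S100a11 had the same sign at -0.46 (limma, adjusted p = 0.048). S100a1 and S100a13, named after their values were seen, had the opposite sign, at 2.33 and 1.498 (limma, adjusted p = 0.00462 and 0.0068). Between 8 h and 1 h, S100pbp had a log2 fold change of 0.67 ± 0.12 (SE, unadjusted p = 0.0016, adjusted p = 0.262) and S100a4 of -0.75 ± 0.28 (SE, unadjusted p = 0.0364, adjusted p = 0.386) in limma. S100a16, also named after its values were seen, with a mean of 101.7 TPM and a series coefficient of -0.27 (limma, adjusted p = 0.491), was not called.

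Among 32 other astrocyte genes, 29 were tested and 0 were called between 8 h and 1 h with limma. Ppp1r3c, a regulator of glycogen, had 20.0 and 24.1 TPM at 1 h, against 53.7, 39.6 and 58.2 TPM in 8 h replicates 13, 14 and 15 (log2 fold change 1.15 ± 0.19, SE, limma, unadjusted p = 9.46e-04, adjusted p = 0.24). Nfia, a transcription factor of astrocyte formation, had 20.5 and 17.9 TPM against 22.8, 28.6 and 29.8 TPM (0.47 ± 0.16, SE, limma, adjusted p = 0.369). Id4 had 20.3 and 16.5 TPM at 1 h, against 7.48, 5.48 and 8.78 TPM at 8 h (-1.25 ± 0.21, SE, limma, unadjusted p = 0.0011, adjusted p = 0.241). In these 3 genes, 8 h replicate 14 went with the other 8 h libraries. They were named for an unadjusted p under 0.05 between 8 h and 1 h, which favours such genes, so no contrast with the members is drawn. The most abundant of the list were Fabp7 (8582 TPM), Cpe (703.6 TPM) and Acsbg1 (403.0 TPM), with series coefficients of 0.33, 0.41 and 0.56 (limma, adjusted p = 0.0908, 0.0533 and 0.0567). For the series term 7 of 29 genes were called higher in series 2 (3.33% of all genes) and 0 lower (96 of all 13870 genes). By the adjusted p of limma alone 9 of 29 were higher, against 7.44% of all genes.

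**Figure D4:**
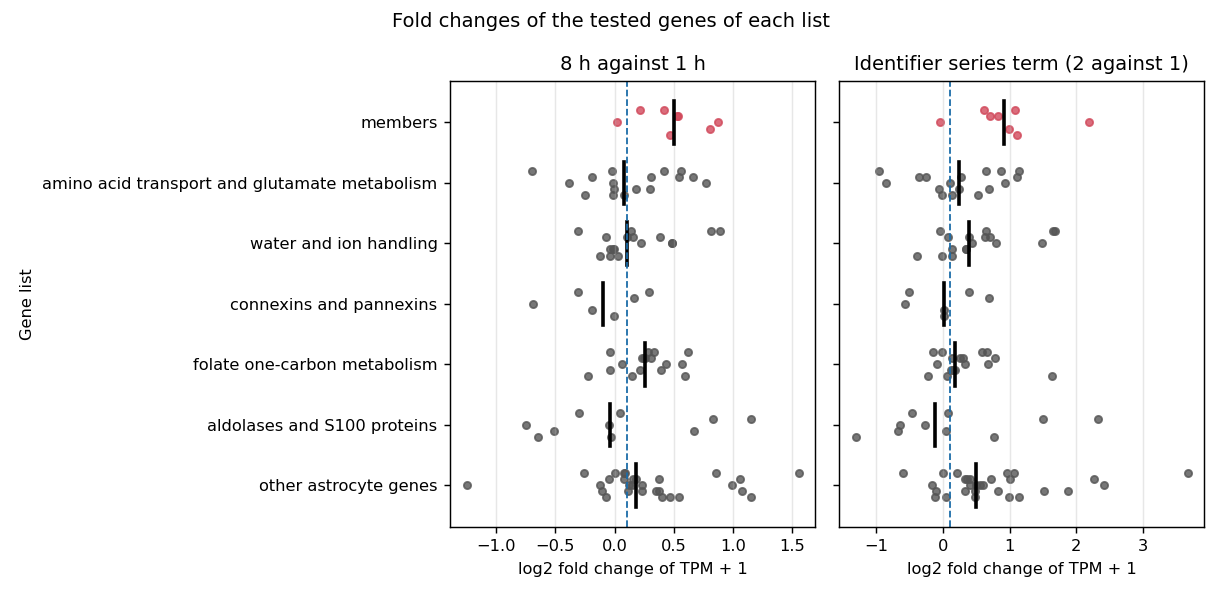
Log2 fold changes of TPM + 1 from limma for the tested genes of each list, with 8 h against 1 h on the left and the identifier series term on the right, where each point is a gene, the black bar the median of the list and the dashed line the median of all genes tested. The member medians are 0.50 and 0.92, against 0.10 and 0.11 over all genes.

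Genes of other cell states were read beside these values. The 6 proliferation genes summed to 708.6 and 718.9 TPM at 1 h against 1258, 654.8 and 1340 TPM in 8 h replicates 13, 14 and 15, and 6 of 6 were higher in series 2 at an adjusted p of limma of at most 0.05. Of all genes, 7.44% were higher in series 2 by that threshold. The sums divide the libraries as 7 of the 8 detected members do, all but S100b, and 39.8% of all genes share that division. The part of proliferation in the levels of the members was not tested. The 8 neural precursor genes summed to between 3200 and 3729 TPM, with 3 of 8 higher in series 2 by the same threshold, and Vim was the most abundant at a mean of 2232 TPM. The 6 myelin genes went the other way, at 329.2 and 299.2 TPM at 1 h, against 159.7, 266.3 and 211.4 TPM at 8 h. Oligodendrocyte progenitor genes summed to between 1558 and 2423 TPM, the 6 ependymal genes to between 20.6 and 38.5 TPM and the 6 neuron genes to between 43.4 and 68.5 TPM. The 6 microglia genes summed to at most 1.51 TPM and none had a mean of 1 TPM, with Tmem119 at 0 in every library. The endothelial markers Cldn5 and Cdh5 were listed at 0 in every library, and that list summed to between 11.96 and 15.4 TPM. By mean TPM the most abundant genes of the lists were Pcna (349.3) for proliferation, Olig1 (1345) for oligodendrocyte progenitors, Cnp (149.7) for myelin, Foxj1 (19.2) for ependyma, Tubb3 (31.7) for neurons, P2ry12 (0.834) for microglia and Flt1 (11.8) for endothelium.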

How the data were processed

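The authors made strand-specific, poly-A selected libraries, sequenced them from both ends and aligned the reads to GRCm38 with STAR within nf-core/rnaseq (bcl2fastq 2.19.1.403 before that, per the submitters' processing notes). The deposited count table holds featureCounts read counts per Ensembl gene, described as filtered by an unstated rule, for 7599 genes, with 0 columns of other samples. The deposited tables per library hold TPM, FPKM (not used here) and mean coverage per base for 46078 genes, and the sources used here name no tool for them. The members and gene lists were chosen with earlier results of these data known. TPM was summed per gene ID and tested with limma 3.58.1 (R 4.3.3) (eBayes with a trend in mean level) after log2(TPM + 1) transformation of the 13870 genes averaging at least 1 TPM, which understates the change of low genes. Counts were tested with edgeR 4.0.16 (quasi-likelihood, TMM, filterByExpr), with DESeq2 1.42.0 as an alternative. All tests were two-sided with Benjamini-Hochberg adjustment over all genes tested, and the p-values measure the spread between these 5 libraries. A call required adjusted p ≤ 0.05 and a log2 fold change beyond 1 in size, after the study's own thresholds. Scripts were tested on simulated data. The text names all 9 members, each pathway list's genes with an unadjusted p under 0.05 and its 3 most abundant, the 2 nearest genes of each member and the most abundant gene of each marker list. Some genes that this rule names are not reported here, though counts and medians include them. Other settings are given in the closing section.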

Additional observations from a re-analysis of the deposited data

How the results depend on the processing

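The count of genes called between 8 h and 1 h from TPM (6) was 0 with no filter on low values, 1 with a mean of at least 5 TPM, 19 with the identifier series as a term and 431 with array weights, and ran from 0 to 573 when 1 library was left out, the highest without 8 h replicate 14. From counts it was 0 under every setting run. Median-ratio scaling moved the median log2 fold change of all genes from 0.10 to -0.0042, and that of S100b to -0.079, which was -0.025 with array weights. With the series as a term, or within series 1 alone, the TPM change reversed for Slc1a2 (-0.30), Aqp4 (-0.59), Glul (-0.27), Aldh1l1 (-0.19) and Aldoc (-0.018), and from counts, with the series as a term, for Slc1a3 (-0.47), Aqp4 (-0.18), Glul (-0.30) and Aldoc (-0.41). The count fit takes the series from the column names, and the column named 8 h replicate 13 matched a TPM table of series 1. Leaving out 1 library gave a TPM change from -0.064 to 0.12 for S100b, 0.14 to 0.77 for Slc1a2, 0.37 to 1.61 for Aqp4, 0.057 to 0.42 for Aldh1l1, 0.28 to 0.84 for Glul and 0.33 to 0.81 for Aldoc. For the last 5 the highest value was without 8 h replicate 14, and the lowest without 8 h replicate 15 (Slc1a2, Aqp4), 8 h replicate 13 (Glul) or 1 h replicate 1 (Aldh1l1, Aldoc). By counts it moved Slc1a2 from -0.49 to 0.077, Slc1a3 from -0.18 to 0.34, Aqp4 from -0.41 to 0.71, Glul from -0.35 to 0.27, Aldoc from -0.23 to 0.39 and S100b from -0.15 to 1.42. The cause was not tested. Gja1 was also called with array weights. No paired analysis was possible because the groups share no replicate number. With 2 libraries at 1 h, small changes were not detectable.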
